A study of Mus musculus with 4 samples.

Results

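The 7 chemokine receptor genes Ccr1, Ccr2, Ccr7, Cx3cr1, Cxcr4, Ackr3 and Ccrl2 were followed in the RNA of dendritic cells grown from mouse bone marrow. They were taken by their symbols from the 3 deposited expression tables, which together list 13685 genes, and all 7 were found in each table. The cells came from the bone marrow of C57BL/6 mice aged 4 weeks and had been cultured for 7 days with the cytokines IL-4 and GM-CSF at 10 ng/ml each, in all 4 groups. One group received CAF.CM after its pre-incubation with anti-Wnt2 antibody (CAF.CM + Wnt2 antibody), one CAF.CM alone, one Wnt2, and one was kept in control medium. CAF.CM is the culture medium of CAFs, the usual abbreviation of cancer-associated fibroblasts, and Wnt2 is a secreted signalling protein of the Wnt family. The labels give no doses, no treatment times and no source of the CAFs. The study set out to find targets of Wnt2 in dendritic cells, as its title says.

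Each group has 1 column of values, called a library here. The design text mentions triplicates, but does not say if a column holds 1 of them or a pool. With 1 library per group no difference has a replicate check, so no test was run. Levels are CPM, a gene's reads relative to the scaled total of its library. Ratios are log2 ratios, computed with a prior count of 2 added to the reads of each library, and are called higher or lower past 2-fold. Intervals are exact 95% intervals on the reads and cover counting error only. The RNA is from bulk cultures, in which fewer cells of a type and less RNA per cell cannot be told apart.

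Chemokine receptors are membrane proteins that leukocytes use to read gradients of small secreted proteins, the chemokines. Classical receptors signal through inhibitory G proteins and steer migration, and atypical ones bind the ligand without this signal, so that they take it up or present it to other cells. In dendritic cells the set of receptors changes with life stage: Ccr1 and Ccr2 mark cells that are recruited to inflamed tissue, and Ccr7 guides mature cells through lymph vessels into lymph nodes. Ccr2 and Cx3cr1 are also the receptors that define classical and patrolling monocytes.

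For the 5 receptors that passed 2-fold in at least 1 comparison, the annotated promoters are shown first, to let their sequences be compared beside the differences. The sequences are RefSeq's on GRCm38.p6, each with the 250 bases before and the 50 bases after the start, read 5′ to 3′ on the gene's own strand. Capitals mark matches to a motif named below. Ccr2 is at chr9:124101933-124102232 on the plus strand, Cx3cr1 at chr9:120068247-120068546 on the minus strand, Cxcr4 at chr1:128592250-128592549 on the minus strand, Ackr3 at chr1:90203730-90204029 on the plus strand, and the first of the listed Ccrl2 promoters at chr9:111057469-111057768 on the minus strand.
Ccr2: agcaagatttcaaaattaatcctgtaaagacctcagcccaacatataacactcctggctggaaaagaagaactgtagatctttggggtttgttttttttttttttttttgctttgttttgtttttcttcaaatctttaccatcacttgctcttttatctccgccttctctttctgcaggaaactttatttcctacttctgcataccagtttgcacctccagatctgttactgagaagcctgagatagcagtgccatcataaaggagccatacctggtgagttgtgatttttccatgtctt
Cx3cr1: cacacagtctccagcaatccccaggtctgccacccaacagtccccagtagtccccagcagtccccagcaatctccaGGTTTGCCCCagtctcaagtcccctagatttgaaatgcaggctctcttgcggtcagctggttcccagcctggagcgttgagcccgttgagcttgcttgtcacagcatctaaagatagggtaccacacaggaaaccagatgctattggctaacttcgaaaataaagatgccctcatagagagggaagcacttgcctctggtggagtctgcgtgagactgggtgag
Cxcr4: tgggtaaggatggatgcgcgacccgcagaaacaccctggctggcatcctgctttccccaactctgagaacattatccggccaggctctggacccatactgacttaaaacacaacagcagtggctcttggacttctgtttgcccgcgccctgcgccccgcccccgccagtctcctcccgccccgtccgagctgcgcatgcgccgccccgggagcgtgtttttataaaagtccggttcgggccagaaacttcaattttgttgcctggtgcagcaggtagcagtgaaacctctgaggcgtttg
Ackr3: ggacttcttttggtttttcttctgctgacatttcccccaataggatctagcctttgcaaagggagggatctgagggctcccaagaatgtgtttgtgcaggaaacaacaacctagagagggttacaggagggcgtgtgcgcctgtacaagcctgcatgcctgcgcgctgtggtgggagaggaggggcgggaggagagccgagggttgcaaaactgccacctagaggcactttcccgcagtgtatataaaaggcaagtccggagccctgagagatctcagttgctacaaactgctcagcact
Ccrl2: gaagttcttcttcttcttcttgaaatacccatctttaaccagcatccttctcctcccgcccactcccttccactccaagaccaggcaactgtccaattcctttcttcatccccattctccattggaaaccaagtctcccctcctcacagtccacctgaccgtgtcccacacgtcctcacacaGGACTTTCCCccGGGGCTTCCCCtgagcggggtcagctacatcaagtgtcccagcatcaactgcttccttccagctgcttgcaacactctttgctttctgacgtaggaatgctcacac

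These starts differ in base composition. The Cxcr4 promoter has 59.3% G and C and 20 CG pairs, and the Ackr3 promoter has 54.0% and 8 pairs. The Ccr2 promoter has 38.0% and 1 CG pair, the lowest G and C content among the 8 promoters listed for 6 of the 7 receptors. Over all 32851 promoters of the same length the medians are 52.7% and 7 pairs. Cx3cr1 and the first Ccrl2 promoter lie close to that median, with 54.3% and 53.0%.

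The 8 promoters were searched on both strands for 5 short motifs. The letters of an NF-kB site (GGG and CC with any 5 bases between) matched 5 times in the first Ccrl2 promoter, in 2 stretches of which the second holds overlapping matches, and 1 time each in Cx3cr1 and Ccr1. This motif is found in 50.8% of all promoters. GAGGAA, the core bound by PU.1, matched only in Ccr1 and is found in 28.3% of all promoters. None of the 8 held ATCAAAG, the letters of a TCF site at the end of the Wnt pathway, nor TTCNNNGAA of STAT factors, nor the repeated GAAA of interferon response elements (with any 2 bases between). These motifs are found in 3.73%, 8.30% and 3.44% of all promoters. A match is a run of letters and not a shown binding site, and a missing match says only that the letters are not in these windows.

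Listed genes held 22791494 reads in CAF.CM + Wnt2 antibody, 25225220 in CAF.CM, 154399767 in Wnt2 and 143071376 in control medium, so values of the CAF.CM libraries rest on fewer reads. Among genes listed everywhere, protein-coding ones took 72.4%, 75.8%, 80.1% and 81.2% of the reads in the same order of libraries. Of 13 dendritic cell markers 12 were listed. In Wnt2 6 were lower than in control medium, in CAF.CM 5 of 11 were, and in CAF.CM + Wnt2 antibody 2 of 10 were lower than in CAF.CM, with 0 higher in each, where 2.93%, 8.69% and 3.65% of all genes were lower. CAF.CM against Wnt2 had 4 of 11 higher and 2 lower, where 4.31% and 6.46% of all genes were. Itgax, which encodes CD11c, had 30.3 CPM in CAF.CM + Wnt2 antibody, 47.7 in CAF.CM, 222.8 in Wnt2 and 887.6 in control medium. H2-Ab1 of MHC class II had 520.7, 483.2, 71.0 and 489.3 CPM in the same libraries, lowest in Wnt2. Other class II markers were not level between CAF.CM and control medium as H2-Ab1 was (log2 ratio -0.02). Cd74 (-1.13) and Ciita (-2.31) were lower in CAF.CM, and H2-Aa (-0.71) was below control medium within 2-fold. Flt3 had only 1.17 CPM in Wnt2 and 0.70 in control medium. The 10 dendritic cell markers listed in all tables summed to 1570 CPM in CAF.CM + Wnt2 antibody, 1707 in CAF.CM, 657.2 in Wnt2 and 3288 in control medium, and their part in the receptor differences was not tested. All 14 monocyte and macrophage markers were listed as well, and 3 of 8 T cell, 1 of 6 B cell, 3 of 6 NK cell and 3 of 10 eosinophil, basophil and mast cell markers were, with Cd3e, Cd3d, Cd79a, Ms4a1, Ncr1 and Epx in no table. Of 9 fibroblast markers 6 were listed, with Col1a1, Pdgfra and Lum in no table, and the 3 listed everywhere summed to 16.5 CPM in CAF.CM + Wnt2 antibody, 15.0 in CAF.CM, 4.15 in Wnt2 and 4.78 in control medium. Of this sum Dcn made 13.9, 10.7, 1.01 and 0.51 CPM, while Pdgfrb had 2.03, 2.80, 1.99 and 2.67 CPM and Thy1 was highest in control medium, at 1.60 CPM.

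Levels were also taken by exonic length, as CPM per kb of all annotated exons of a gene. On this scale Ccr1 was the highest of the 7 receptors in every library, and the receptors below it changed places. CAF.CM + Wnt2 antibody had Ccr1 at 93.5 CPM per kb, Ccrl2 63.9, Cxcr4 19.9, Ccr7 18.9, Ackr3 4.05, Ccr2 0.587 and Cx3cr1 0.430. Cxcr4 and Ccr7 were within counting error of each other in that library, and so were Ccr2 and Cx3cr1. CAF.CM had Ccr1 at 113.7 CPM per kb, Ccrl2 45.0, Cxcr4 29.5, Ccr7 24.8, Ackr3 3.22, Ccr2 2.78 and Cx3cr1 0.298, and there the counting intervals of Ackr3 and Ccr2 overlapped. In both CAF.CM libraries Ccrl2 came next after Ccr1.

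In Wnt2 the order was Ccr1 with 169.6 CPM per kb, Cxcr4 142.2, Ccr2 46.7, Ackr3 22.4, Ccr7 19.0, Ccrl2 15.4 and Cx3cr1 0.904. In control medium Ccr1 had 102.4 CPM per kb, Ccr2 85.9, Cxcr4 77.1, Ccr7 24.5, Ccrl2 18.7, Cx3cr1 10.1 and Ackr3 0.920. Ackr3 was thus above Ccr7 and Ccrl2 in Wnt2 and below both in control medium, and Ccr2 was below Cxcr4 in Wnt2 and above it in control medium. Before division by length, Ccr2 was above Ccr1 in control medium, at 580.4 against 290.0 CPM. The annotated exons of Ccr2 cover 6760 bases and its longest transcript 5728, so the order of Ccr1 and Ccr2 there depends on the length taken.

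**Figure D1:**
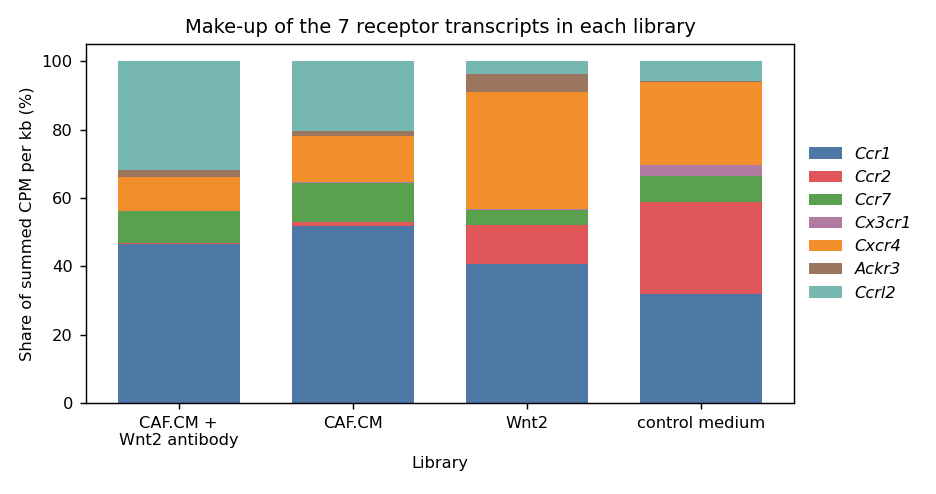
Share of each receptor in the summed CPM per kb of the 7 receptors (vertical axis, percent) in the 4 libraries (horizontal axis), 1 library per bar. Ccr2 has 0.292% in CAF.CM + Wnt2 antibody, 1.27% in CAF.CM, 11.2% in Wnt2 and 26.9% in control medium, and Ccrl2 has 31.8%, 20.5%, 3.69% and 5.85% in the same libraries.

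The receptors' summed level was 201.2 CPM per kb in CAF.CM + Wnt2 antibody, 219.3 in CAF.CM, 416.0 in Wnt2 and 319.6 in control medium. Ccr1 alone made 46.5%, 51.9%, 40.8% and 32.0% of it. The plot of receptor make-up shows that the Cxcr4 part was widest in Wnt2, at 34.2%, against 24.1% in control medium. In both CAF.CM libraries Ccr1 and Ccrl2 had the largest shares.

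Among the inflammatory receptors, Ccr1 binds Ccl3, Ccl5, Ccl6 and Ccl9 in mice and lies on GRCm38 at chr9:123962124-123968692, minus strand. It had 264.8 CPM in CAF.CM + Wnt2 antibody, 322.2 in CAF.CM, 480.4 in Wnt2 and 290.0 in control medium. The Wnt2 library was the highest and the other 3 lay closer together. No Ccr1 ratio passed 2-fold: Wnt2 against control medium was 0.73 (interval 0.71 to 0.75), CAF.CM against control medium 0.15 (0.12 to 0.19), and CAF.CM + Wnt2 antibody against CAF.CM -0.28 (-0.33 to -0.24).

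Ccr2 is the receptor for Ccl2 with which classical monocytes leave the bone marrow, and lies at chr9:124101950-124113557, plus strand, on GRCm38. It had 3.97 CPM in CAF.CM + Wnt2 antibody (92 reads), 18.8 in CAF.CM (489 reads), 315.4 in Wnt2 (48467 reads) and 580.4 in control medium (82150 reads). All 4 libraries stood apart beyond counting error, with the antibody library lowest and control medium highest. In CAF.CM + Wnt2 antibody 23.4% of listed genes had lower CPM than Ccr2, against 98.9% in control medium.

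Ccr2 was 1.84-fold lower in Wnt2 than in control medium (log2 ratio -0.88, interval -0.90 to -0.86), short of the threshold. It was 30.9-fold lower in CAF.CM than in control medium (-4.95, interval -5.08 to -4.82), the 29th lowest ratio of 13329 genes. In CAF.CM + Wnt2 antibody it was a further 4.66-fold lower than in CAF.CM (-2.22, interval -2.58 to -1.92), the 30th lowest of 13072 genes. Between CAF.CM + Wnt2 antibody and control medium the difference was 145.5-fold (-7.18, interval -7.50 to -6.90), and only 2 of 12882 genes had a lower ratio. CAF.CM was 16.8-fold lower than Wnt2 (-4.07, interval -4.20 to -3.94). The comparisons share libraries, so these ratios are not independent of each other.

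Cx3cr1, the receptor of the membrane-bound chemokine Cx3cl1 on monocytes, macrophages and some dendritic cells, spans chr9:119901616-120069879 on the minus strand of GRCm38, where it overlaps 9 other genes, and the antisense gene Gm33858 overlaps its exons. It had 1.94 CPM in CAF.CM + Wnt2 antibody (45 reads), 1.34 in CAF.CM (35 reads), 4.07 in Wnt2 (626 reads) and 45.7 in control medium (6464 reads). Control medium was far above the other 3 libraries, and the CAF.CM libraries overlapped within counting error. No source used here states if reads were counted by strand, so reads of the antisense gene are not told apart from these.

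Cx3cr1 was 11.2-fold lower in Wnt2 than in control medium (log2 ratio -3.48, interval -3.61 to -3.37), the 9th lowest ratio of 13120 genes. It was 33.4-fold lower in CAF.CM than in control medium (-5.06, interval -5.61 to -4.61), and lower in CAF.CM than in Wnt2 (-1.58, interval -2.13 to -1.11). CAF.CM + Wnt2 antibody against CAF.CM gave 0.50 with an interval of -0.14 to 1.21, so at 45 and 35 reads no difference was detectable there.

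Ccr2 and Cx3cr1 did not keep 1 proportion to each other. The ratio of Cx3cr1 to Ccr2 within a library, which does not depend on how libraries are scaled, was 0.734 per kb in CAF.CM + Wnt2 antibody, 0.107 in CAF.CM, 0.0194 in Wnt2 and 0.118 in control medium. It was lower in Wnt2 than in control medium by a log2 change of -2.61 (interval -2.73 to -2.49). Between CAF.CM and control medium the change was -0.14 with an interval of -0.63 to 0.36. Cx3cr1 thus differed more from control medium than Ccr2 did in Wnt2, and for CAF.CM no difference between the pair was detectable within counting error.

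Monocyte and macrophage markers were read beside these receptors. Their summed CPM without Lyz2, which dominates the list, was 2276 in CAF.CM + Wnt2 antibody, 2745 in CAF.CM, 2860 in Wnt2 and 3253 in control medium. With Lyz2 it was 6701, 9652, 20910 and 29017. For Wnt2 against control medium 6 of 14 markers were lower and 1 higher, where 2.93% and 2.87% of all genes were. For CAF.CM against control medium 8 were lower and 2 higher, where 8.69% and 6.68% of all genes were, and for CAF.CM + Wnt2 antibody against CAF.CM 4 of 13 were lower and 0 higher, where 3.65% and 1.02% of all genes were. The higher ones were Cd14 in Wnt2 (1.15) and Cd14 (1.29) and the classical monocyte marker Ly6c2 (2.24) in CAF.CM, so these did not go the way of Ccr2. Csf1r, the receptor of the macrophage growth factor, had 526.0 CPM in CAF.CM + Wnt2 antibody, 767.9 in CAF.CM, 1056 in Wnt2 and 1087 in control medium, a range far narrower than that of Ccr2. The part of these markers in the receptor differences was not tested.

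**Figure D2:**
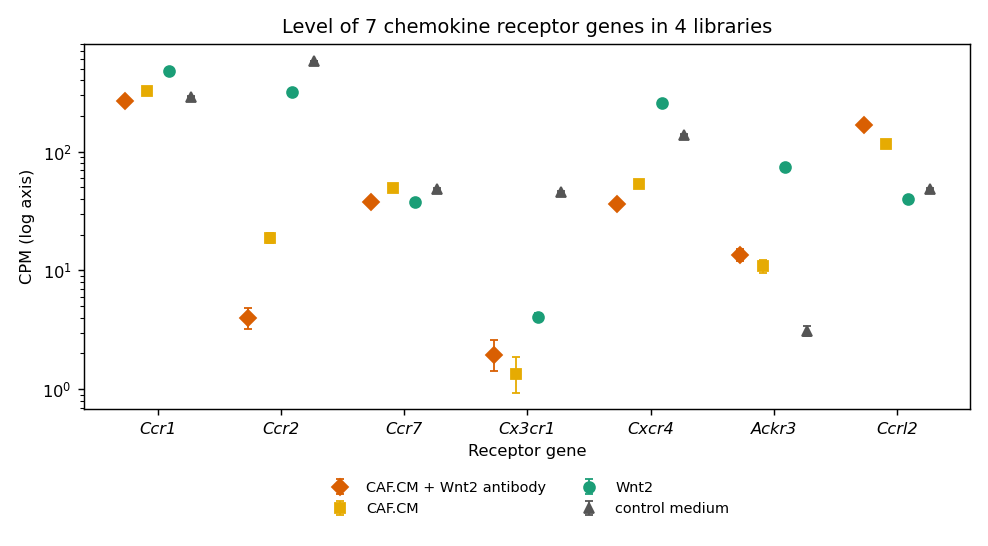
CPM of the 7 receptor genes (vertical axis, log scale) in each of the 4 libraries, with exact 95% counting intervals, which are mostly smaller than the symbols. Ccr2 spreads from 3.97 CPM in CAF.CM + Wnt2 antibody to 580.4 in control medium, while Ccr7 stays between 37.3 and 49.0 CPM.

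Ccr7, the receptor for Ccl19 and Ccl21 of lymph vessels and nodes, lies at chr11:99144196-99155077 on the minus strand of GRCm38. It had 37.3 CPM in CAF.CM + Wnt2 antibody, 49.0 in CAF.CM, 37.5 in Wnt2 and 48.5 in control medium. CAF.CM and control medium overlapped within counting error (log2 ratio 0.02, interval -0.07 to 0.10), and so did the intervals of CAF.CM + Wnt2 antibody and Wnt2. Wnt2 against control medium was -0.37 (interval -0.42 to -0.32) and CAF.CM + Wnt2 antibody against CAF.CM -0.39 (interval -0.52 to -0.27), both within 2-fold. As the plot of receptor levels shows, Ccr7 had the narrowest range of the 7 receptors.

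Relative to Ccr2, however, Ccr7 differed strongly between libraries. The ratio of Ccr7 to Ccr2 per kb was 32.2 in CAF.CM + Wnt2 antibody, 8.92 in CAF.CM, 0.407 in Wnt2 and 0.286 in control medium. The ratio of Ccr1 to Ccr2 per kb was 159.4, 40.9, 3.63 and 1.19 in the same libraries. Ccr1 and Ccr7 themselves stayed within 2-fold in all 5 comparisons.

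Genes of mature migratory dendritic cells, the state in which Ccr7 is known to be high, were read beside it. Of 28 listed members 2 were higher and 0 lower in Wnt2 than in control medium, with a median log2 ratio of 0.10, against -0.02 for all listed genes, of which 2.87% were higher and 2.93% lower. In CAF.CM 10 were higher and 2 lower than in control medium, with a median of 0.66, against -0.04 for all genes, of which 6.68% were higher and 8.69% lower. Ccl5 (6.69), also a Ccr1 ligand, the costimulatory receptor gene Tnfrsf9 (3.44) and Cd40 (1.97) were among the higher ones, and the annexin gene Anxa3 (-2.58) was lower. In CAF.CM + Wnt2 antibody 0 were higher and 2 lower than in CAF.CM (Il4i1, -1.34, and Anxa3, -1.16), with a median of -0.24, against -0.04 for all genes, of which 1.02% were higher and 3.65% lower. Fscn1, Cd83 and Relb, which usually mark this state, stood at 0.34, -0.07 and -0.24 in CAF.CM against control medium.

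Cxcr4 and the atypical receptor Ackr3 share the ligand Cxcl12: Cxcr4 signals from it and holds cells in the bone marrow, and Ackr3 takes it up, together with Cxcl11. Cxcr4 lies at chr1:128588199-128592293, minus strand, and Ackr3 at chr1:90203980-90216751, plus strand, on GRCm38. Cxcr4 had 35.9 CPM in CAF.CM + Wnt2 antibody, 53.4 in CAF.CM, 257.0 in Wnt2 and 139.4 in control medium. Ackr3 had 13.6 CPM (315 reads) in CAF.CM + Wnt2 antibody, 10.8 (281 reads) in CAF.CM, 74.9 (11505 reads) in Wnt2 and 3.08 (436 reads) in control medium. Both were highest in Wnt2, but Cxcr4 was below control medium in the CAF.CM libraries and Ackr3 above it.

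Ackr3 was 24.2-fold higher in Wnt2 than in control medium (log2 ratio 4.60, interval 4.47 to 4.74), and 4 of 13120 genes had a higher ratio. It was 3.48-fold higher in CAF.CM than in control medium (1.80, interval 1.59 to 2.03) and 6.93-fold lower in CAF.CM than in Wnt2 (-2.79, interval -2.97 to -2.62). CAF.CM + Wnt2 antibody against CAF.CM gave 0.33 (interval 0.09 to 0.57), within 2-fold. In CAF.CM + Wnt2 antibody Ackr3 was 4.38-fold higher than in control medium (2.13, interval 1.93 to 2.35).

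Cxcr4 stood at 0.88 for Wnt2 against control medium (interval 0.86 to 0.91), 1.84-fold and short of the threshold. It was 2.61-fold lower in CAF.CM than in control medium (-1.38, interval -1.46 to -1.31) and 4.81-fold lower than in Wnt2 (-2.27, interval -2.34 to -2.19). For CAF.CM + Wnt2 antibody against CAF.CM it was at -0.57 (interval -0.70 to -0.45), and against control medium it was 3.88-fold lower (-1.96, interval -2.06 to -1.86).

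The balance of the pair differed from control medium in all other libraries. Ackr3 made 0.204 of the Cxcr4 level per kb in CAF.CM + Wnt2 antibody (interval 0.179 to 0.233), 0.109 in CAF.CM (0.0956 to 0.124), 0.157 in Wnt2 (0.154 to 0.161) and 0.0119 in control medium (0.0108 to 0.0131). The log2 change of this ratio was 3.72 for Wnt2 against control medium (interval 3.58 to 3.86) and 3.19 for CAF.CM against control medium (interval 2.96 to 3.42). For CAF.CM + Wnt2 antibody against CAF.CM it was 0.90 (interval 0.64 to 1.17). Cxcr4 transcripts outnumbered those of Ackr3 per kb in every library.

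**Figure D3:**
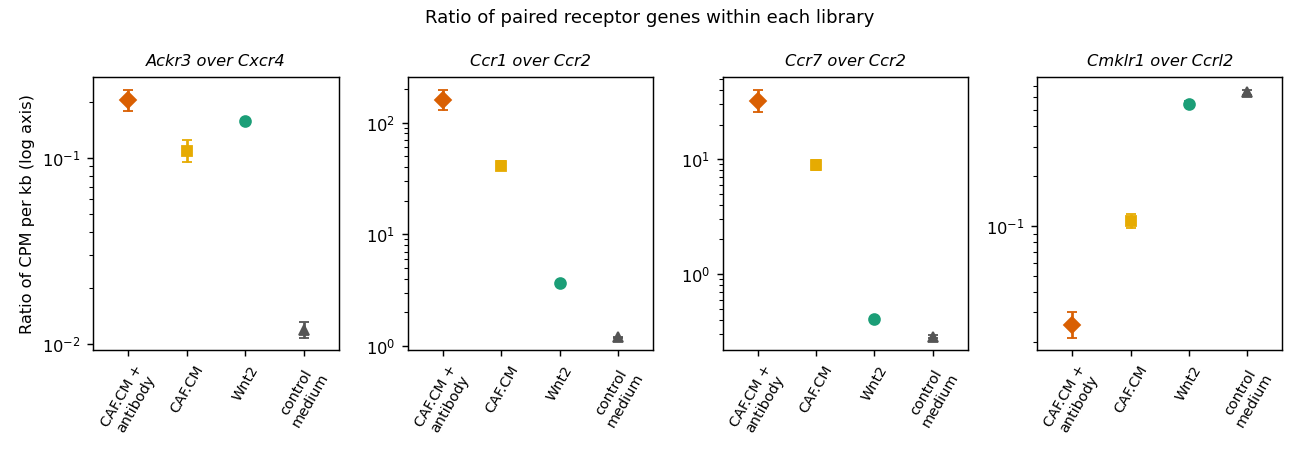
Ratios of the CPM per kb of paired receptor genes within each library (vertical axes, log scale) with exact 95% counting intervals, 1 point per library. Ackr3 over Cxcr4 is 0.204 in CAF.CM + Wnt2 antibody, 0.109 in CAF.CM and 0.157 in Wnt2, against 0.0119 in control medium, and Cmklr1 over Ccrl2 is 0.0253 in CAF.CM + Wnt2 antibody against 0.646 in control medium.

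Cxcr4 is also strongly expressed in neutrophils and their precursors, and 2 of 10 neutrophil markers were listed. The neutrophil collagenase gene Mmp8 and S100a8 summed to 101.9 CPM in CAF.CM + Wnt2 antibody, 144.2 in CAF.CM, 1501 in Wnt2 and 548.4 in control medium, the same order of libraries as for Cxcr4. S100a9, Elane, Mpo and Ly6g, which define these cells, were in no table. The part of these markers in the Cxcr4 difference was not tested.

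Ccrl2 is an atypical receptor that binds chemerin without signalling and presents it to Cmklr1, the signalling chemerin receptor. It lies at chr9:111054486-111057519, minus strand, on GRCm38. Ccrl2 had 166.1 CPM in CAF.CM + Wnt2 antibody, 116.8 in CAF.CM, 39.9 in Wnt2 and 48.6 in control medium. The CAF.CM libraries lay above the other pair. Ccrl2 was higher in CAF.CM than in control medium (log2 ratio 1.26, interval 1.203 to 1.327) and 2.93-fold higher than in Wnt2 (1.55, interval 1.49 to 1.61). For Wnt2 against control medium it was at -0.28 (interval -0.33 to -0.23), and for CAF.CM + Wnt2 antibody against CAF.CM at 0.51 (interval 0.44 to 0.58), both within 2-fold.

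Cmklr1 had 5.52 CPM in CAF.CM + Wnt2 antibody, 16.4 in CAF.CM, 28.8 in Wnt2 and 41.2 in control medium. Cmklr1 was lower in CAF.CM than in control medium (log2 ratio -1.32, interval -1.47 to -1.18) and lower in CAF.CM + Wnt2 antibody than in CAF.CM (-1.56, interval -1.87 to -1.29). The level of Cmklr1 relative to Ccrl2 was 0.0253 per kb in CAF.CM + Wnt2 antibody, 0.107 in CAF.CM, 0.550 in Wnt2 and 0.646 in control medium. Its log2 change was -2.59 for CAF.CM against control medium (interval -2.74 to -2.44) and -2.08 for CAF.CM + Wnt2 antibody against CAF.CM (interval -2.38 to -1.79). The chemerin gene Rarres2 was listed in no table.

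Calls were counted over the 7 receptors in each comparison. For CAF.CM against control medium 2 receptors were higher (Ackr3 and Ccrl2) and 3 lower (Ccr2, Cx3cr1 and Cxcr4), where 6.68% of all listed genes were higher and 8.69% lower. For Wnt2 against control medium 1 was higher (Ackr3) and 1 lower (Cx3cr1), with 2.87% and 2.93% of all genes. For CAF.CM + Wnt2 antibody against CAF.CM 0 were higher and 1 was lower (Ccr2), with 1.02% and 3.65% of all genes. The receptors were chosen with earlier results of these data known, so the counts cannot be tested against these shares.

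The comparisons that join libraries of different tables gave further counts. CAF.CM + Wnt2 antibody against control medium had 2 receptors higher and 3 lower, with 8.1% and 12.6% of all genes, and CAF.CM against Wnt2 had 1 higher and 4 lower, with 4.31% and 6.46% of all genes. For each of these calls both ends of the counting interval were past 2-fold. The plot of receptor ratios shows the same values, with Ccr2 as the only receptor past 2-fold between CAF.CM + Wnt2 antibody and CAF.CM.

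**Figure D4:**
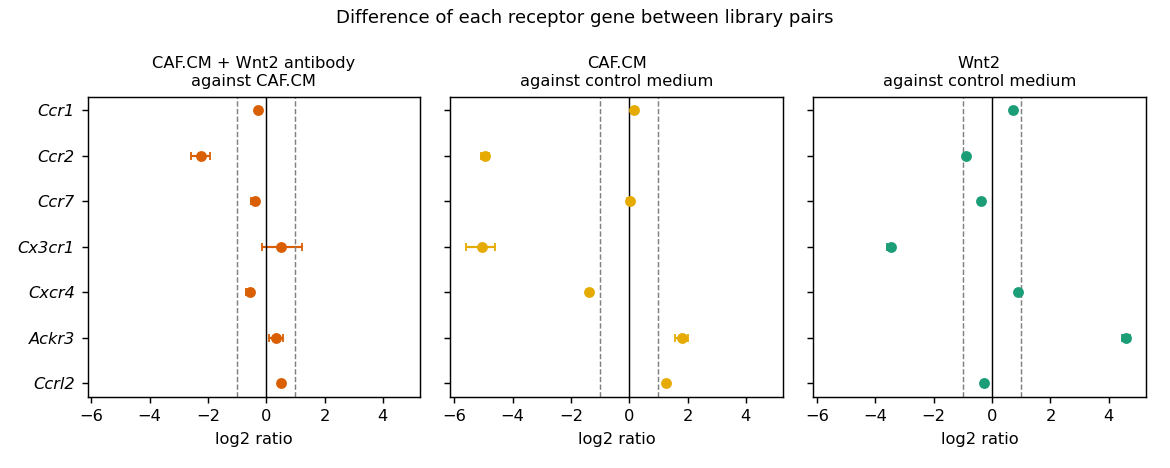
Log2 ratio of each of the 7 receptors (horizontal axes, dashed lines at 2-fold) for CAF.CM + Wnt2 antibody against CAF.CM, CAF.CM against control medium and Wnt2 against control medium, with 95% counting intervals. Ccr2 is at -2.22, -4.95 and -0.88 in the 3 panels, and Ackr3 at 0.33, 1.80 and 4.60.

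The authors' deposited table for each comparison carries adjusted p-values, whose assumed dispersion no source used here states. At an adjusted p under 0.05, the authors' deposited table of Wnt2 against control medium had 3 receptors higher and 2 lower, against 7.36% and 8.0% of all genes. Beside Ackr3 (2.07e-76) and Cx3cr1 (9.04e-49), the authors' deposited table there gave adjusted p-values of 0.00419 for Ccr1, 0.000302 for Ccr2 and 0.000290 for Cxcr4. The authors' deposited table of CAF.CM against control medium had 2 higher and 3 lower, with 13.9% and 18.8% of all genes. Under the same rule, the authors' deposited table for CAF.CM + Wnt2 antibody against CAF.CM had 0 higher and Ccr2 alone lower (adjusted p 2.88e-15), with 1.42% and 5.55% of all genes.

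The receptors' ligands were read in the same libraries. Of the Ccr1 ligands 5 of 6 were listed. Ccl5 had 3289 CPM in CAF.CM + Wnt2 antibody, 2746 in CAF.CM, 30.4 in Wnt2 and 26.5 in control medium. Ccl6 had 130.1, 339.8, 2641 and 2698 CPM in the same libraries, and Ccl9 had 66.3, 113.3, 1299 and 1151 CPM. Thus both CAF.CM libraries held mostly Ccl5, and Wnt2 and control medium mostly Ccl6 and Ccl9, while Ccr1 itself stayed within 2-fold in every comparison.

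For CAF.CM against control medium the log2 ratios were 6.69 for Ccl5, -2.99 for Ccl6, -3.34 for Ccl9 and -1.10 for Ccl3. In CAF.CM + Wnt2 antibody Ccl6 was lower than in CAF.CM (-1.39, interval -1.45 to -1.33), and Ccl9 (-0.77) and Ccl5 (0.26) were within 2-fold. None of the 5 differed by 2-fold between Wnt2 and control medium. Ccl4, the last of the listed Ccr1 ligands, was near the floor of the tables with 1.16 CPM in CAF.CM + Wnt2 antibody, 2.00 in CAF.CM, 2.45 in Wnt2 and 2.37 in control medium.

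The other receptors had few listed ligands. The Ccr2 ligand Ccl2 had 1.08 CPM in CAF.CM + Wnt2 antibody, 2.57 in CAF.CM and 0.85 in control medium, and was not listed in the table of Wnt2. Ccl8, a CCR2 ligand in humans, had 2.03 CPM in CAF.CM + Wnt2 antibody, 2.11 in CAF.CM and 0.37 in control medium. Cx3cl1 had 14.3 CPM in CAF.CM + Wnt2 antibody, 10.8 in CAF.CM, 5.66 in Wnt2 and 6.17 in control medium, with the CAF.CM libraries above the other pair. The cytokine gene Mif, whose product also binds Cxcr4, had 282.9, 265.1, 194.7 and 117.1 CPM in the same libraries. Adm, also in the ligand list of Cxcr4 and Ackr3, was near the floor and not listed for Wnt2. It had 1.12 CPM in CAF.CM + Wnt2 antibody (26 reads), 1.04 in CAF.CM (27 reads) and 0.05 in control medium (7 reads). Ccl19, the Ccl21 genes, Cxcl12, Cxcl11, Ccl7 and Ccl12 were listed in no table.

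**Figure D5:**
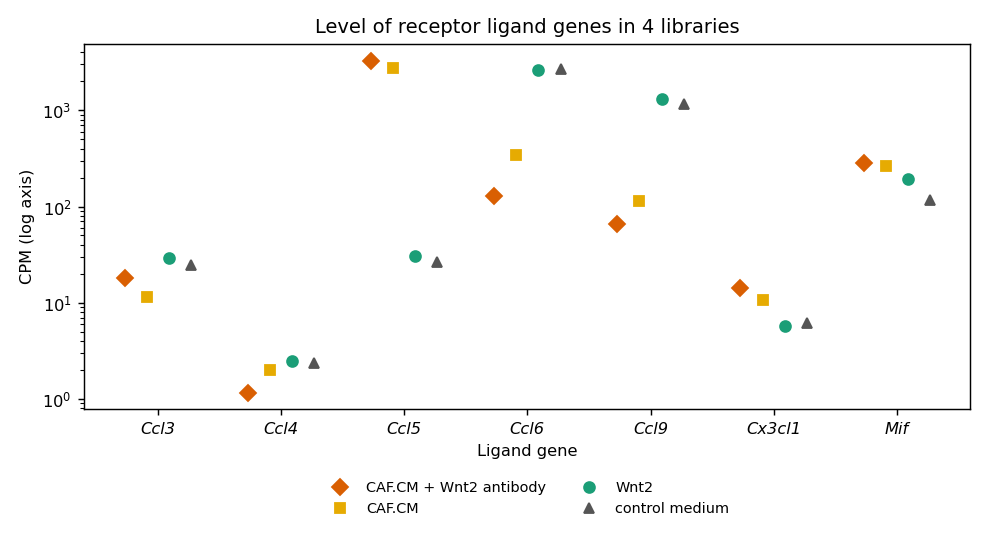
CPM of 7 ligand genes of the receptors (vertical axis, log scale) in the 4 libraries, 1 symbol per library. Ccl5 is at 3289 CPM in CAF.CM + Wnt2 antibody and 2746 in CAF.CM, against 30.4 in Wnt2 and 26.5 in control medium, and Ccl6 and Ccl9 are higher in Wnt2 and control medium than in both CAF.CM libraries.

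Ccr1 and Ccr2 belong to a cluster of 8 chemokine receptor genes on chromosome 9, of which 6 were listed. The Ccr9 and Cxcr6 genes of the cluster had at most 4.17 and 4.05 CPM in any library, Xcr1, the receptor of cross-presenting dendritic cells, had at most 1.02 CPM, and Ccr3 was not listed. Of the 31-base words of the longest Ccr2 transcript, 4.03% occur in any transcript of another gene. For Cx3cr1 the share was 1.76% and for Ccr1 0.642%, and Ccr7, Cxcr4 and Ackr3 shared none. Reads from shared stretches could be split between genes in counting.

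Of 21 other chemokine receptor genes 10 were listed in at least 1 table. For Wnt2 against control medium 1 of 8 was higher (Cxcr2, log2 ratio 1.49, with 1.52 CPM in Wnt2 and 0.53 in control medium) and 0 lower, against 2.87% and 2.93% of all genes. For CAF.CM against control medium 1 of 7 was higher and 3 were lower, namely Gpr35 (-1.50), Cmklr1 and Ccr10 (-1.11), against 6.68% and 8.69% of all genes. The higher one was Ccr4, with 1.61 CPM in CAF.CM (42 reads) and 0.14 in control medium (20 reads). With a floor of about 1 CPM in the higher library, Cxcr2 and Ccr4 were listed only through the library where they were higher. For CAF.CM + Wnt2 antibody against CAF.CM 0 of 8 were higher and 2 lower, among them Cmklr1, against 1.02% and 3.65% of all genes.

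Downstream of the receptors, the genes of G proteins, arrestins and receptor kinases differed little. Of 24 listed members, 0 passed 2-fold for Wnt2 against control medium, where Grk6, a kinase of activated receptors, had the largest ratio (0.93). In CAF.CM the phospholipase gene Plcb2 was lower than in control medium (-1.13), and in CAF.CM + Wnt2 antibody the kinase gene Grk4 was lower than in CAF.CM (-1.05), with 0 higher in both. The list medians were 0.01, -0.15 and -0.19 for the 3 comparisons, against -0.02, -0.04 and -0.04 for all genes, of which 2.93%, 8.69% and 3.65% were lower.

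The products of RGS genes end G protein signals of these receptors. Of 10 listed, 1 was lower in Wnt2 than in control medium (Rgs3, -1.07), 4 were lower in CAF.CM than in control medium and 2 in CAF.CM + Wnt2 antibody than in CAF.CM, with 0 higher in each. Of all genes 2.93%, 8.69% and 3.65% were lower in these comparisons. Rgs16 had 1.12 CPM in CAF.CM + Wnt2 antibody, 0.73 in CAF.CM, 16.8 in Wnt2 and 19.4 in control medium, a log2 ratio of -4.69 for CAF.CM against control medium. Rgs18 was lower in CAF.CM than in control medium (-1.56) and in CAF.CM + Wnt2 antibody than in CAF.CM (-1.33). The list medians were -0.11, -0.88 and -0.58, against -0.02, -0.04 and -0.04 for all genes.

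All 29 genes of the leukocyte migration machinery were listed. In Wnt2 1 was lower than in control medium, Dock2, the activator of Rac downstream of chemokine receptors (-1.03). In CAF.CM 6 were lower and 1 higher than in control medium, among them the GTPase gene Rhoh (-1.80), Dock2 (-1.59) and the myosin gene Myo1f (-1.33). In CAF.CM + Wnt2 antibody 1 was lower than in CAF.CM and 0 were higher. The list medians were -0.20, -0.45 and -0.33, against -0.02, -0.04 and -0.04 for all genes, of which 2.93%, 8.69% and 3.65% were lower and 2.87%, 6.68% and 1.02% higher.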

How the data were processed

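Stranded libraries were prepared from 1 ug of ribosomal-RNA-depleted total RNA, per the labels' protocols. The submitters' processing notes name STAR 2.4.2a, RSEM 1.2.29 and edgeR, and as builds GRCm38.p5 and mm10, without settings or strand use. The authors deposited CPM on scaled library sizes, 1 table per comparison, each with a floor of about 1 CPM in its higher library. The tables also hold the authors' log2 fold changes and their p-values, raw and adjusted. The control medium and CAF.CM columns recur in a further table with the same values.

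Design and tests had been planned for reads recovered from CPM. In each library all CPM values were whole multiples of the worth of 1 read within 0.1 of it (0.0431 CPM in CAF.CM + Wnt2 antibody, 0.0384 in CAF.CM, 0.00651 in Wnt2, 0.00706 in control medium), which gave the reads. For log2 ratios, edgeR 4.0.16 (R 4.3.3) was run over all genes of a comparison on the authors' library sizes, with 2 as prior count. Exact conditional binomial intervals came from scipy 1.17.1 in Python 3.11.15 (numpy 2.4.6, pandas 2.3.3, matplotlib 3.10.9), and those for changes of a within-library ratio are Wald intervals on log reads. Intervals cover counting error only. The steps were tested on simulated data. Exonic lengths and positions are GENCODE M21's on GRCm38.

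The receptors, gene lists and markers were chosen with earlier results of these data known. Named are all 7 receptors, their listed ligands, and up to 4 list members per comparison with the largest ratio and at least 20 reads, with paired genes, cluster neighbours and single markers added after their values were seen. Alternatives were other prior counts, scalings (one with DESeq2 1.42.0 size factors), a minimum of 100 counts, the deposited log2 fold changes and a 1.5-fold threshold. Receptor protein sequences were not analysed here, and a few genes within this rule are left out here.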

Additional observations from a re-analysis of the deposited data

How the results depend on the processing

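Of the 35 receptor ratios, 34 kept their sign and their side of 2-fold under prior counts of 0.5 and 5, total counts, DESeq2 size factors, own TMM factors, a minimum of 100 counts, the deposited log2 fold changes and protein-coding totals, each where it gave a value, the last chosen after seeing the data. Deposited fold changes exist for the 3 comparisons within a table only. The exception was Ccr1 in CAF.CM + Wnt2 antibody against control medium, which was at -0.13 and became 0.08 with protein-coding totals, not a call in either. That scaling moved the median of all genes to 0.15 there and to 0.12 for CAF.CM against control medium. The largest distance of any receptor ratio from its reported value was 0.21. Of 265 alternative values 28 lay outside the counting interval of their ratio, so these intervals do not cover the choice of processing. Ccr7 in CAF.CM against control medium, with an interval of -0.07 to 0.10, reached 0.18. With a 1.5-fold threshold, Wnt2 against control medium had 3 receptors higher and 2 lower, since Ccr1, Cxcr4 and Ccr2 lie between the thresholds. The same threshold gave 968 higher and 1049 lower genes there among all genes, 1838 and 2387 for CAF.CM against control medium, and 575 and 1400 for CAF.CM + Wnt2 antibody against CAF.CM. It gave 2247 and 3079 for CAF.CM + Wnt2 antibody against control medium and 1350 and 1951 for CAF.CM against Wnt2. A minimum of 100 counts left 55 higher and 293 lower genes between CAF.CM + Wnt2 antibody and CAF.CM, against 133 and 477 without it, and dropped Cx3cr1 from that comparison. Depth limits Cx3cr1 most, at 45 and 35 reads in the CAF.CM libraries. No replicate could be left out and no paired analysis was possible because each group has 1 library.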

Other observations

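A list of 27 receptors for other chemoattractants and lipid mediators, chosen after the data had been seen, was read beside the chemokine receptors, and 22 of them were listed. For Wnt2 against control medium 6 of 22 were higher and 5 lower, with a median log2 ratio of 0.04, where 2.87% of all genes were higher and 2.93% lower. The formyl peptide receptor genes Fpr1 (2.19) and Fpr2 (1.87) were highest, and C3ar1, a complement receptor, was lower (-1.41). For CAF.CM against control medium 3 of 21 were higher and 9 lower (median -0.93), where 6.68% and 8.69% of all genes were, and for CAF.CM + Wnt2 antibody against CAF.CM 0 of 20 were higher and 5 lower (median -0.59), where 1.02% and 3.65% of all genes were. Fpr2 had 71.2 CPM in CAF.CM + Wnt2 antibody, 137.6 in CAF.CM, 36.3 in Wnt2 and 9.90 in control medium, so it was highest in CAF.CM. The complement receptor gene C5ar1 had 4.78, 10.3, 55.3 and 57.5 CPM in the same libraries, with both CAF.CM libraries below the other pair. C5ar2 had 0.259 CPM in CAF.CM + Wnt2 antibody (6 reads), 1.08 in CAF.CM (28 reads), 18.3 in Wnt2 and 9.15 in control medium.

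Among 9520 protein-coding genes, the one whose log2 CPM over the 4 libraries, centred on its mean, lay closest to each receptor was looked up, as a description over 4 points. Cx3cr1 was closest to Fcrls, a gene of macrophages, at a distance of 0.654 in log2 units. Fcrls had 1.08 CPM in CAF.CM + Wnt2 antibody, 1.19 in CAF.CM, 4.07 in Wnt2 and 29.5 in control medium. Cxcr4 was closest to the arginase gene Arg1 (0.0549), with 1412 CPM in CAF.CM + Wnt2 antibody, 2201 in CAF.CM, 10252 in Wnt2 and 5479 in control medium. Ackr3 was closest to the leptin receptor gene Lepr (0.809), Ccr1 to Mocos (0.112), Ccr7 to Erap1 (0.0380) and Ccrl2 to Tmem8b (0.191). The next closest were Matk for Ccr2, Daglb for Cx3cr1, Ptgs1 for Cxcr4, Cxcl3 for Ackr3, Il4ra for Ccr1, Cxcl16 for Ccr7 and Tmod1 for Ccrl2. Among the receptors themselves Ccr1 and Ccr7 lay closest (0.859) and Ccr2 and Ccrl2 farthest apart (7.54).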
